A study of Homo sapiens with 6 samples.

Results

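The genes described here are 46 human genes of the lysosome, namely its proteases, glycosidases, sulfatases, lipid enzymes and lipid-binding proteins, its membrane proteins, and the transcription factor gene TFEB. They were taken by name from a table of 57773 Ensembl gene IDs, and each of the 46 names matched 1 ID. The series holds 6 poly(A) RNA-seq libraries of RPE1, an immortalised human line derived from retinal pigment epithelium. Of these, 3 came from cultures exposed to 2.5 µM Nutlin-3 for 24 h and 3 from cultures given its solvent DMSO for 24 h, all in the same medium with serum. Nutlin-3 blocks the contact between p53 and MDM2, which otherwise marks p53 for degradation, and the series asks which genes p53 controls in these cells. The labels name triplicates without saying whether these were separate cultures, so p-values reflect how much these libraries vary, and part of that variation may be technical.

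Lysosomes are acidic compartments in which hydrolases break down proteins, glycans and lipids that arrive by endocytosis and autophagy. Most soluble hydrolases are tagged with mannose 6-phosphate in the Golgi and carried to the lysosome by mannose 6-phosphate receptors, while heavily glycosylated membrane proteins line the organelle and the V-ATPase acidifies it. TFEB and its relatives TFE3 and MITF bind an E-box element found in the promoters of many lysosomal genes, and mTORC1 on the lysosomal surface holds TFEB in the cytoplasm when nutrients are ample.

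The deposited values are RPKM that the authors computed with gene spans that count introns, so a long gene has a low RPKM for its reads. Whole read numbers could be recovered from them for all 46 genes, with between 187 and 102578 reads per gene and library. The recovered reads came to between 31.6 and 37.0 M (megareads) in Nutlin-3 libraries and to between 28.4 and 41.0 M in DMSO libraries. Among 14 genes that mark retinal pigment epithelium, OTX2, KRT8 and KRT18 reached 0.5 RPKM. KRT8 and KRT18, keratins of simple epithelia, rose 1.68-fold and 1.74-fold with Nutlin-3 (limma adjusted p = 6.07e-05 and 0.000162), and OTX2 fell to 81.9% of its DMSO level (limma adjusted p = 0.0233). The summed level of the 14 markers was between 77.6 and 82.9 RPKM with Nutlin-3 and between 46.5 and 50.6 RPKM with DMSO. Most of this sum was KRT18, at 67.8 to 72.6 RPKM with Nutlin-3 and 38.7 to 43.0 RPKM with DMSO. The part of the markers in the results was not tested. Markers other than OTX2, KRT8 and KRT18 stayed at or below 0.214 RPKM in every library, with DCT and TTR at 0 throughout. The highest of these was MITF, a long gene with 1383 to 1708 reads with Nutlin-3 and 1429 to 1905 reads with DMSO. The direct p53 targets CDKN1A and MDM2 were at 60.5 ± 2.34 and 8.46 ± 0.225 RPKM in Nutlin-3 libraries, against 8.36 ± 0.463 and 2.31 ± 0.0866 RPKM in DMSO libraries (mean ± SD, n = 3). In such bulk RNA a larger number of cells of one kind and more RNA per cell cannot be told apart.

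With Nutlin-3, most lysosomal genes rose by a modest amount. On log2(RPKM + 0.5), limma tested the 39 genes whose mean reached 0.5 RPKM. Of these, 31 rose and 3 fell at a Benjamini-Hochberg adjusted p under 0.05, where 29.1% of all 12212 genes tested rose and 22.5% fell. The genes that fell were NPC1, GUSB and GLA, and those that did not pass were CTSC, CTSL, FUCA2, PPT1 and NPC2. The other 7 genes, CTSO, LGMN, GALC, MANBA, ARSB, SUMF1 and TFEB, lay under the minimum. On the recovered reads, limma voom tested all 46 genes, of which 37 rose and 3 fell, where 26.0% of 20728 genes rose and 24.3% fell. The 20728 genes needed a mean of only 10 reads, while the lysosomal genes had at least 187 per library. Genes with few reads pass less easily, so these shares are not like for like. The 31 genes that rose on RPKM all rose on reads, and the same 3 fell. The median log2 fold change on reads was 0.40 for the lysosomal genes and 0.0044 for all genes tested, and 13.1% of all genes had a change as high as 0.40 or higher. In 9 of the 46 genes the ratio of mean RPKM reached 1.5, and in 1 of them, FUCA1, it reached 2.00.

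Replicates mostly lay close together, though over all genes DMSO replicate 1 differed most from the others of its group. The 3 Nutlin-3 values of a gene spanned a median of 4.43% of their mean, and the 3 DMSO values 6.51%. In 32 of the 39 genes tested on RPKM all Nutlin-3 libraries were above all DMSO libraries, and in 3 they were all below, where 34.4% and 27.4% of all genes tested showed such a separation upwards and downwards. The counts depended on how libraries were scaled. The authors' library sizes were inferred from the RPKM, as the sizes at which reads come out as whole numbers. When total recovered reads replaced the authors' library sizes, the median change of all genes tested on RPKM was -0.048 in place of 0.024, 2444 genes rose and 4032 fell, against 3551 and 2745 with the authors' sizes. On reads 3695 rose and 7038 fell, against 5379 and 5045. Under that scaling 27 of the 39 lysosomal genes rose and 5 fell, and on reads 34 of 46 rose and 5 fell.

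**Figure D1:**
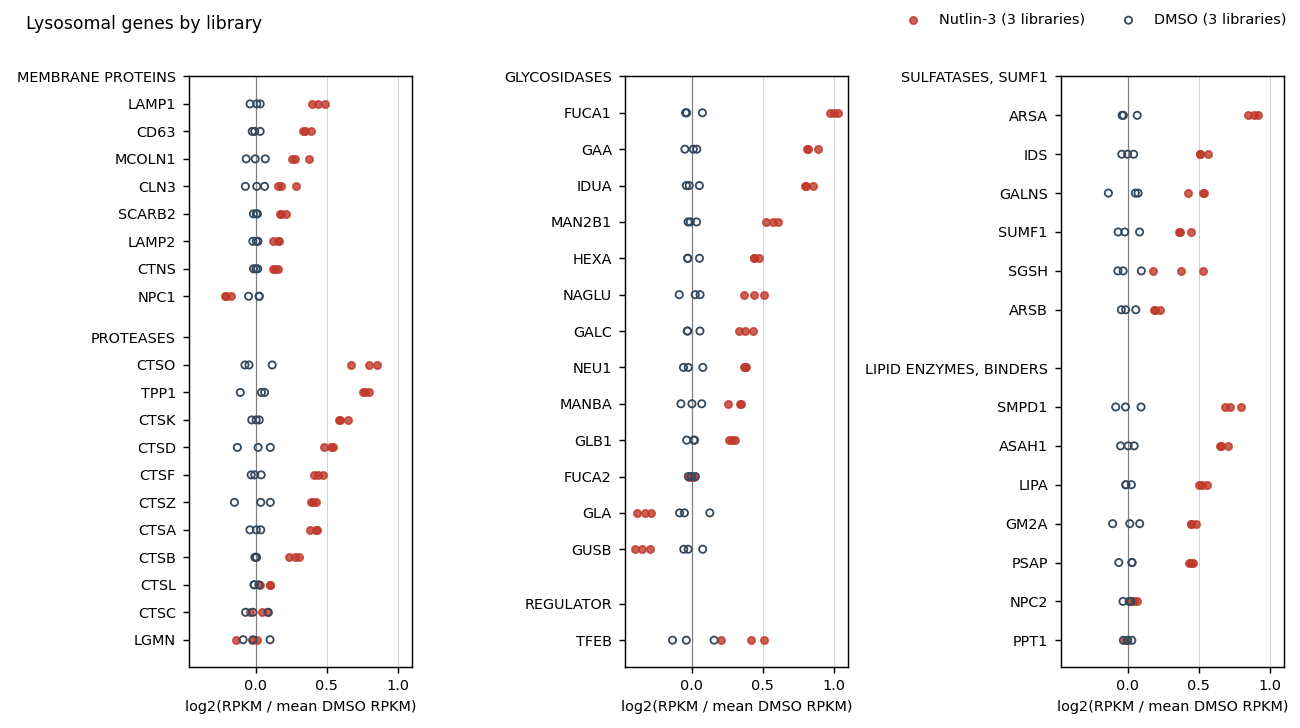
Each row is a lysosomal gene and each point a library, with RPKM given as the log2 ratio to the mean of the 3 DMSO libraries, for Nutlin-3 libraries (filled) and DMSO libraries (open). FUCA1 stands farthest to the right, NPC1, GLA and GUSB lie to the left, and the points of CTSC, LGMN, FUCA2, NPC2 and PPT1 overlap.

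Together the 46 genes held 1.01%, 1.03% and 1.02% of all recovered reads in Nutlin-3 replicates 1, 2 and 3, and 0.787%, 0.841% and 0.841% in DMSO replicates 1, 2 and 3. Every Nutlin-3 library was above every DMSO library. The protease cathepsin D (CTSD) alone gave between 26.7% and 27.2% of these reads with Nutlin-3 and between 23.7% and 26.2% with DMSO. Prosaposin (PSAP) gave between 23.0% and 23.4% with Nutlin-3 and between 22.5% and 22.9% with DMSO. Without CTSD and PSAP the remaining 44 genes held between 0.507% and 0.509% of all reads with Nutlin-3, against between 0.424% and 0.439% with DMSO, so the higher share did not rest on these 2 genes alone.

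**Figure D2:**
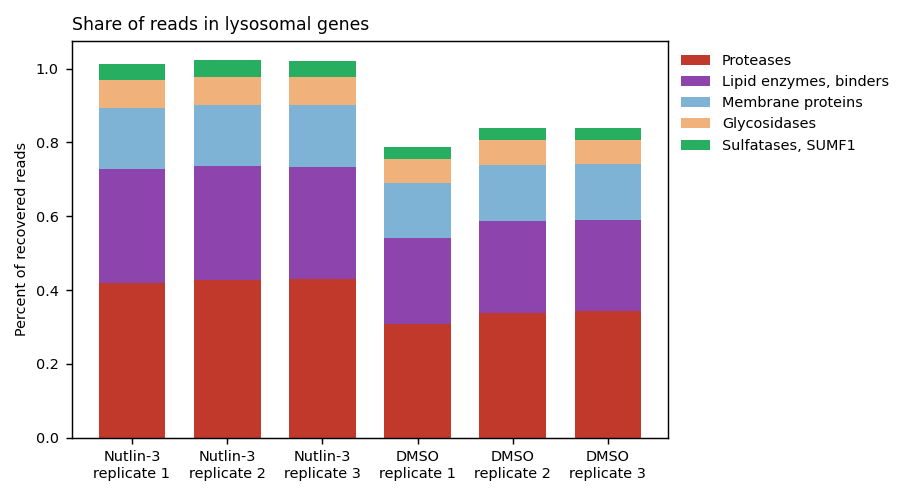
Stacked bars give the percentage of all recovered reads that fell in each class of lysosomal genes, for the 3 Nutlin-3 and the 3 DMSO libraries. Proteases hold the widest part of every bar, totals lie near 1% with Nutlin-3 and between 0.787% and 0.841% with DMSO, and TFEB is left out because its share is too small to see.

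RefSeq promoter sequences (build GRCh38.p14, 250 bases before to 50 after the gene start) were found for 34 of the 46 genes. There was no entry for ARSA, ASAH1, CTSB, CTSK, CTSO, HEXA, LAMP2, LGMN, MANBA, NAGLU, PSAP and SGSH. The letters TCACGTGA, the core of the element bound by TFEB and its relatives, read the same on both strands, and so does the shorter E-box CACGTG that lies inside them. That element was first described from lysosomal promoters, so its presence in these genes is background. TCACGTGA stood in 6 of the 34 promoters (17.6%), against 1.04% of all 27305 promoters, and CACGTG in 11 (32.4%), against 7.43%. The 27305 include genes with too few reads here to be tested, unlike the 34. Among genes tested on reads, 222 promoters held TCACGTGA and 11898 did not. For CACGTG these numbers were 1165 and 10955. The 6 genes are shown because their promoters hold TCACGTGA. In each stretch of 40 bases, written 5′ to 3′ on the strand of the gene, capitals mark TCACGTGA.
GAA, chr17:80101488-80101527, plus strand: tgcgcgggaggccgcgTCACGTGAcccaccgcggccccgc
LAMP1, chr13:113297194-113297233, plus strand: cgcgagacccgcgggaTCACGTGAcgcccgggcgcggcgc
MCOLN1, chr19:7522566-7522605, plus strand: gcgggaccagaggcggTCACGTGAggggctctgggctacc
CTSA, chr20:45891293-45891332, plus strand: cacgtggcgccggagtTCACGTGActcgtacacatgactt
CLN3, chr16:28492053-28492092, minus strand: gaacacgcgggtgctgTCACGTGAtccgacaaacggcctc
GALNS, chr16:88857099-88857138, minus strand: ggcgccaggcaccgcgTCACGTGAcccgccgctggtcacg

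GAA, LAMP1 and MCOLN1 hold 2 copies each, and the other 3 genes 1 copy. The whole promoter of GAA is given as the gene with 2 copies that rose most on reads, by 0.84. LAMP1 and MCOLN1, also with 2 copies, rose by 0.44 and 0.30. That of FUCA1 is given as the gene with the largest rise on reads and neither set of letters in this window.
GAA, chr17:80101331-80101630, plus strand: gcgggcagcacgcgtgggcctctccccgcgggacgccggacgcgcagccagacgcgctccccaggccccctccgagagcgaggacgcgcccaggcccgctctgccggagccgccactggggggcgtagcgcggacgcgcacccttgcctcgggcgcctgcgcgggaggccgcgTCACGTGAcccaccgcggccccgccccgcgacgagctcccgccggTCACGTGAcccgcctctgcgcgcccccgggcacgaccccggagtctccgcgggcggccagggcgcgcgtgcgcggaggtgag
FUCA1, chr1:23868241-23868540, minus strand: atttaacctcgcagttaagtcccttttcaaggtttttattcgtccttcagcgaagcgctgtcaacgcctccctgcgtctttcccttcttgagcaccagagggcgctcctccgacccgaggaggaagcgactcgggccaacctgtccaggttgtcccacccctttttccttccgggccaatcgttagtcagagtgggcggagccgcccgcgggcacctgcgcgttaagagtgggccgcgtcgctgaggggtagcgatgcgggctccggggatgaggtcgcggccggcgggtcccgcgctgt
All 6 genes with TCACGTGA rose on reads, with a median log2 fold change of 0.43, and so did 20 of the 28 without it, with a median of 0.38. Over all genes tested on reads with a promoter entry, 83 of 222 with TCACGTGA rose (37.4%), as did 3454 of 11898 without it (29.03%). Of the same genes 57 with it (25.7%) and 3338 without it (28.1%) fell, and the median changes were 0.051 and 0.0012. For the shorter CACGTG, 341 of 1165 genes that hold it rose (29.3%), as did 3196 of 10955 without it (29.2%). Of these genes 354 with it (30.4%) and 3041 without it (27.8%) fell. With the 46 genes left out, 77 of 216 genes with TCACGTGA rose (35.6%) and 57 fell (26.4%). Those 216 still hold other genes of the lysosomal pathway, such as PLBD2, IGF2R and TSC2. These shares are descriptions, and a match of letters does not show binding.

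TFEB (ENSG00000112561) was among the least abundant of the 46 genes. It had 290, 308 and 226 reads in Nutlin-3 replicates 1 to 3, and 248, 187 and 233 reads in DMSO replicates 1 to 3. On the authors' scale these were 0.176, 0.165 and 0.142 RPKM with Nutlin-3, against 0.112, 0.120 and 0.138 RPKM with DMSO. The groups did not overlap, but Nutlin-3 replicate 3 lay just above DMSO replicate 3. The rise was 1.30-fold, with a log2 change of 0.40 on reads (SE 0.097, limma voom adjusted p = 0.00144). TFEB lay under the minimum of 0.5 RPKM, and did not pass on log2(RPKM + 0.5) without that minimum (adjusted p = 0.103). Its relative TFE3 rose to 7.15 ± 0.229 RPKM with Nutlin-3, against 5.85 ± 0.0969 RPKM with DMSO (n = 3, limma adjusted p = 0.00136). MITF had a log2 change of -0.03 on reads and did not pass (limma voom adjusted p = 0.649). With the length of the principal transcript in place of the gene span (transcript RPKM), the TFE3 level was 30.9 with Nutlin-3 and 25.3 with DMSO, and the TFEB level was 3.57 with Nutlin-3 and 2.74 with DMSO.

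Among the 8 membrane proteins, 7 rose and NPC1 fell, where 29.1% of all genes tested on RPKM rose and 22.5% fell. The median log2 fold change of the 8 was 0.16 on RPKM and 0.20 on reads. LAMP1 (ENSG00000185896), a main glycoprotein of the lysosomal membrane, had 14.9, 15.3 and 15.8 RPKM in the Nutlin-3 libraries, against 11.0, 11.4 and 11.5 RPKM in the DMSO libraries. That is a 1.36-fold rise without overlap (log2 change 0.42, SE 0.035, limma adjusted p = 0.000372). CD63 (ENSG00000135404), a tetraspanin of late endosomes and lysosomes, had 119, 120.2 and 124 RPKM with Nutlin-3, against 96.5, 92.8 and 94.0 RPKM with DMSO. It rose 1.28-fold (log2 change 0.35, SE 0.029, limma adjusted p = 0.000354). MCOLN1 (ENSG00000090674), the TRPML1 channel that releases lysosomal calcium, had 1.69, 1.71 and 1.84 RPKM with Nutlin-3, against 1.41, 1.35 and 1.48 RPKM with DMSO. It is one of the genes with TCACGTGA copies shown above, and rose 1.23-fold (log2 change 0.23, SE 0.040, limma adjusted p = 0.00551).

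The other risers of the membrane were smaller. LAMP2, the LAMP1 relative that also serves chaperone-mediated autophagy, rose 1.11-fold, and SCARB2, the receptor that carries glucocerebrosidase to lysosomes, 1.14-fold. CLN3, a protein lost in juvenile Batten disease, rose 1.15-fold and the cystine exporter gene CTNS 1.10-fold. NPC1 (ENSG00000141458), which exports cholesterol from the lysosome, fell. It had 1.67, 1.63 and 1.64 RPKM in Nutlin-3 libraries, against 1.83, 1.92 and 1.92 RPKM in DMSO libraries, all lower with Nutlin-3 (87.0% of the DMSO level, log2 change -0.16, SE 0.027, limma adjusted p = 0.00526). The call of CLN3 was lost without any 1 of Nutlin-3 replicates 2 and 3 and DMSO replicates 1 and 2 (adjusted p from 0.0555 to 0.0632), and that of CTNS without any 1 of the 3 Nutlin-3 replicates and DMSO replicate 2 (adjusted p from 0.0554 to 0.0732). On reads CTNS lost its call without any 1 of the 6 libraries (limma voom adjusted p from 0.0545 to 0.107). Scaled to total reads, LAMP2, CLN3, CTNS and the sulfatase SGSH did not pass (limma adjusted p = 0.144, 0.133, 0.351 and 0.0818).

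Of 11 proteases, 9 were tested on RPKM. Of these 7 rose, against 29.1% of all genes tested, while CTSC and CTSL did not pass. TPP1 (ENSG00000166340), an aminopeptidase that removes tripeptides, rose most in RPKM. Its values were 43.1, 42.2 and 41.8 RPKM with Nutlin-3, against 22.9, 25.8 and 25.4 RPKM with DMSO, a 1.71-fold rise (log2 change 0.77, SE 0.051, limma adjusted p = 0.000188). CTSK (ENSG00000143387), a cysteine cathepsin known for collagen breakdown by osteoclasts, had 11.0, 11.1 and 11.5 RPKM with Nutlin-3, against 7.36, 7.47 and 7.20 RPKM with DMSO. It rose 1.53-fold (log2 change 0.58, SE 0.030, limma adjusted p = 9.32e-05). CTSD (ENSG00000117984), the aspartic protease of the lysosome and a gene described as a p53 target, had 245, 255 and 257 RPKM with Nutlin-3, against 161, 178 and 189 RPKM with DMSO. The lowest Nutlin-3 library was well above the highest DMSO library, with a 1.43-fold rise (log2 change 0.52, SE 0.063, limma adjusted p = 0.00141).

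The serine carboxypeptidase CTSA, which also protects beta-galactosidase and neuraminidase, rose 1.33-fold, and the cysteine cathepsin genes CTSF, CTSZ and CTSB rose 1.36-, 1.32- and 1.21-fold. CTSO, another cysteine cathepsin, lay under the RPKM minimum with a mean of 0.594 RPKM with Nutlin-3 and 0.347 RPKM with DMSO. It had 520, 644 and 568 reads in Nutlin-3 libraries and 423, 334 and 318 in DMSO libraries, and rose by 0.78 on reads (SE 0.072, limma voom adjusted p = 2.50e-09), as much as TPP1. CTSL, a cysteine endopeptidase, had 11.2, 11.2 and 10.7 RPKM with Nutlin-3, against 10.4, 10.3 and 10.6 RPKM with DMSO. The groups did not overlap, but the change of 0.07 did not pass (SE 0.030, limma adjusted p = 0.0958). CTSC, a dipeptidyl peptidase that activates serine proteases of immune cells, overlapped between groups (log2 change 0.03, SE 0.049, limma adjusted p = 0.661). LGMN, an asparaginyl endopeptidase, had a change of -0.05 on reads (SE 0.082, limma voom adjusted p = 0.670).

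Glycosidases held 2 of the 3 falls and, by the ratio of means and on reads, the largest rise. On RPKM 8 of the 11 tested rose and 2 fell, against 29.1% and 22.5% of all genes tested. FUCA1 (ENSG00000179163), the lysosomal alpha-fucosidase and a gene described as a p53 target, had 1.78, 1.82 and 1.75 RPKM with Nutlin-3, against 0.864, 0.869 and 0.938 RPKM with DMSO. It rose 2.00-fold (log2 change 0.72, SE 0.031, limma adjusted p = 6.25e-05), and by 1.01 on reads. GAA (ENSG00000171298), the alpha-glucosidase that degrades glycogen and is lacking in Pompe disease, had 2.18, 2.17 and 2.29 RPKM with Nutlin-3, against 1.19, 1.27 and 1.24 RPKM with DMSO. It rose 1.79-fold (log2 change 0.64, SE 0.030, limma adjusted p = 6.99e-05). IDUA (ENSG00000127415), the iduronidase of heparan and dermatan sulfate breakdown, had 1.30, 1.30 and 1.35 RPKM with Nutlin-3, against 0.775, 0.737 and 0.727 RPKM with DMSO. It rose 1.76-fold (log2 change 0.54, SE 0.027, limma adjusted p = 7.94e-05).

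The other glycosidases that rose were the mannosidase MAN2B1 at 1.48-fold, the beta-hexosaminidase subunit HEXA at 1.36-fold, NAGLU of heparan sulfate breakdown at 1.36-fold and the neuraminidase NEU1 at 1.30-fold. GLB1, whose beta-galactosidase gives the staining used as a mark of senescent cells, rose 1.22-fold to 1.05 ± 0.0144 RPKM with Nutlin-3, against 0.859 ± 0.0182 RPKM with DMSO (n = 3, limma adjusted p = 0.00155). The galactosylceramidase GALC and the beta-mannosidase MANBA, both under the RPKM minimum, rose by 0.38 and 0.32 on reads (limma voom adjusted p = 5.65e-05 and 3.22e-06). GUSB (ENSG00000169919), the beta-glucuronidase, had 1.68, 1.82 and 1.75 RPKM with Nutlin-3, against 2.35, 2.19 and 2.14 RPKM with DMSO. It fell to 78.7% of the DMSO level (log2 change -0.28, SE 0.040, limma adjusted p = 0.00275). GLA (ENSG00000102393), the alpha-galactosidase lacking in Fabry disease, had 1.54, 1.60 and 1.65 RPKM with Nutlin-3, against 2.19, 1.89 and 1.94 RPKM with DMSO. All Nutlin-3 libraries were lower, and it fell to 79.3% (log2 change -0.26, SE 0.053, limma adjusted p = 0.00954). FUCA2, a relative of FUCA1, had 6.90, 6.97 and 7.04 RPKM with Nutlin-3, against 7.10, 6.86 and 6.97 RPKM with DMSO. These overlapped, with a log2 change of -0.0011 that did not pass (SE 0.025, limma adjusted p = 0.977).

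Of the sulfatases and SUMF1, which installs their catalytic formylglycine, 4 of 4 tested on RPKM and all 6 tested on reads rose. Over all genes 29.1% of those tested on RPKM and 26.0% of those tested on reads rose. ARSA (ENSG00000100299), which desulfates sulfatide, had 7.12, 7.46 and 7.31 RPKM with Nutlin-3, against 3.87, 4.14 and 3.84 RPKM with DMSO. Its 1.85-fold rise gave the largest change on log2(RPKM + 0.5) of the 39 genes tested (0.81, SE 0.036, limma adjusted p = 6.69e-05). IDS (ENSG00000010404), the iduronate sulfatase lacking in Hunter syndrome, had 4.33, 4.50 and 4.33 RPKM with Nutlin-3, against 2.95, 3.03 and 3.13 RPKM with DMSO, a 1.45-fold rise (log2 change 0.47, SE 0.031, limma adjusted p = 0.000179). GALNS (ENSG00000141012), which acts on keratan sulfate, had 1.03, 1.02 and 0.951 RPKM with Nutlin-3, against 0.645, 0.735 and 0.745 RPKM with DMSO, a 1.41-fold rise (log2 change 0.31, SE 0.044, limma adjusted p = 0.00240).

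SGSH, the sulfamidase of heparan sulfate breakdown, rose 1.29-fold. It had 0.537, 0.615 and 0.685 RPKM with Nutlin-3, against 0.453, 0.508 and 0.465 RPKM with DMSO, and its call was lost without any 1 of Nutlin-3 replicates 2 and 3 and DMSO replicates 1, 2 and 3 (limma adjusted p from 0.0553 to 0.101). On reads it passed (0.37, limma voom adjusted p = 0.00202). ARSB, which acts on dermatan and chondroitin sulfate, and SUMF1 lie in very long genes and under the RPKM minimum. ARSB had 1448, 1597 and 1354 reads with Nutlin-3 and 1603, 1154 and 1319 with DMSO, which gave a change of 0.20 relative to library size (limma voom adjusted p = 0.000504). It did not pass on log2(RPKM + 0.5) without the minimum (limma adjusted p = 0.0866). SUMF1 had 2308, 2765 and 2210 reads with Nutlin-3 and 2286, 1789 and 1810 with DMSO, a change of 0.40 (limma voom adjusted p = 5.63e-08).

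Among the 7 lipid enzymes and lipid-binding proteins, 5 rose on RPKM, against 29.1% of all genes tested, and 2 did not pass. SMPD1 (ENSG00000166311), the acid sphingomyelinase, had 18.4, 18.9 and 19.9 RPKM with Nutlin-3, against 10.8, 11.3 and 12.2 RPKM with DMSO. It rose 1.67-fold (log2 change 0.71, SE 0.055, limma adjusted p = 0.000304). ASAH1 (ENSG00000104763), the acid ceramidase that acts on the product of SMPD1, had 4.03, 3.89 and 3.87 RPKM with Nutlin-3, against 2.38, 2.55 and 2.47 RPKM with DMSO, a 1.59-fold rise (log2 change 0.58, SE 0.031, limma adjusted p = 0.000102). PSAP (ENSG00000197746), the precursor of the saposins that present sphingolipids to their hydrolases, had 69.0, 70.3 and 69.7 RPKM with Nutlin-3, against 49.0, 52.3 and 52.2 RPKM with DMSO. It rose 1.36-fold (log2 change 0.44, SE 0.034, limma adjusted p = 0.000311).

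LIPA, the acid lipase for cholesteryl esters, rose 1.44-fold and GM2A, the activator that presents ganglioside to beta-hexosaminidase, 1.37-fold. NPC2 (ENSG00000119655), which hands cholesterol to NPC1, had 9.96, 10.1 and 10.3 RPKM with Nutlin-3, against 9.88, 9.97 and 9.59 RPKM with DMSO. The groups overlapped slightly and the change of 0.04 did not pass (SE 0.028, limma adjusted p = 0.254). PPT1, a thioesterase that removes palmitate from proteins, had 3.12, 3.11 and 3.14 RPKM with Nutlin-3, against 3.21, 3.15 and 3.08 RPKM with DMSO (log2 change -0.0088, SE 0.024, limma adjusted p = 0.784). Scaled to total reads, PPT1 and FUCA2 passed as lower with Nutlin-3 (log2 change -0.092, adjusted p = 0.0195 for PPT1, and -0.092, adjusted p = 0.0122 for FUCA2).

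**Figure D3:**
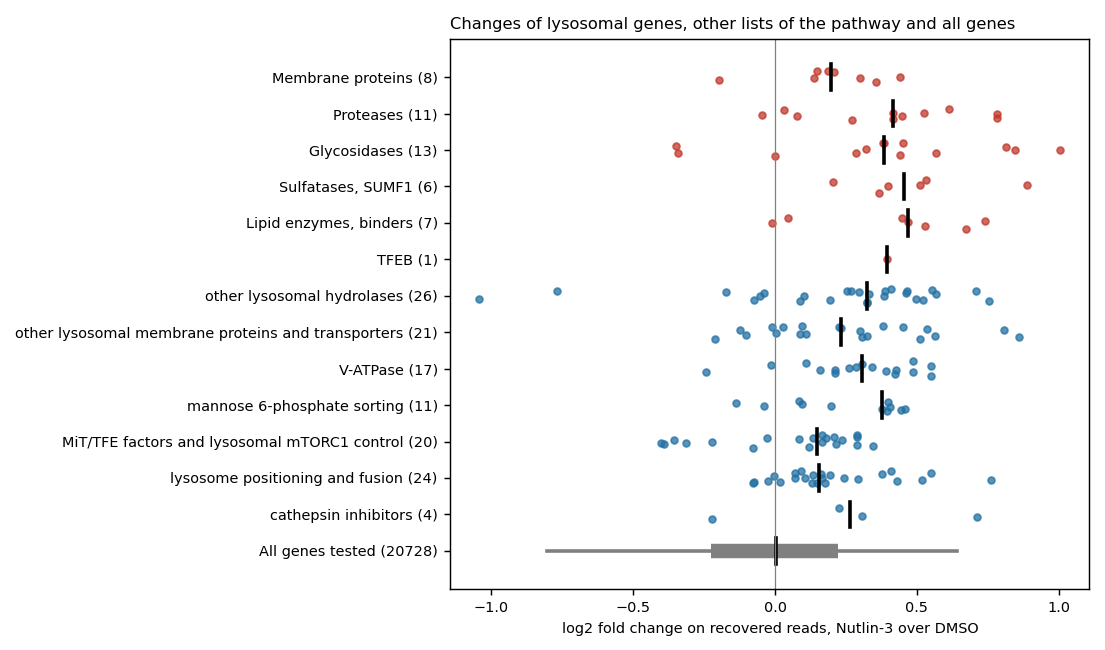
Points give the log2 fold change on recovered reads, Nutlin-3 over DMSO, for each lysosomal gene by class (red) and each gene of 7 other lists (blue), with the number tested in brackets and a black bar at the median. The grey bar below covers all 20728 genes tested between the 25th and 75th percentiles, -0.23 to 0.22, and its line runs from the 5th to the 95th percentile, -0.80 to 0.64. Medians of the classes lie between 0.20 for membrane proteins and 0.47 for lipid enzymes and binders.

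Some related genes changed by different amounts. The log2 ratio of FUCA1 to FUCA2, from RPKM + 0.5, was -1.71 ± 0.031 with Nutlin-3 and -2.43 ± 0.051 with DMSO (mean ± SD, n = 3), a difference of 0.72. LAMP1 over LAMP2 differed by 0.29, ARSA over ARSB by 0.75, CTSK over CTSL by 0.51, NPC2 over NPC1 by 0.20 and GLB1 over GLA by 0.45. The added 0.5 flattens changes of low genes, and ARSB lay under the minimum of 0.5 RPKM. On reads ARSA rose by 0.89 and ARSB by 0.20, while FUCA1 rose by 1.01 and FUCA2 changed by -0.0020. These 6 pairs were chosen with the changes of single genes known, and 3 against 3 libraries cannot give a 2-sided exact permutation p under 0.1, so the differences are descriptions.

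Levels spanned a wide range. Transcript RPKM take all reads of a gene as reads of its principal transcript, which was not tested, so ranks between genes are approximate. On that scale CTSD had a level of 1337 ± 33.2 with Nutlin-3 and 933 ± 75.1 with DMSO. PSAP had 850.4 ± 7.59 with Nutlin-3 and 625 ± 23.0 with DMSO. CD63 followed at 429.8 ± 8.95 with Nutlin-3 and 336 ± 6.65 with DMSO. NPC2 came next in both groups, at 176 ± 2.76 with Nutlin-3 and 171 ± 3.42 with DMSO. At the other end SGSH had a level of 3.13 ± 0.379 with Nutlin-3 and 2.43 ± 0.148 with DMSO, and GALC 3.44 ± 0.120 with Nutlin-3 and 2.64 ± 0.0938 with DMSO. LIPA, which has 1.06 RPKM with Nutlin-3 and 0.733 RPKM with DMSO on the span scale, was eleventh by length of transcript, at 76.3 ± 1.38 with Nutlin-3 and 52.9 ± 0.837 with DMSO. Across the 46 genes the DMSO level and the log2 change on reads had a Spearman rho of -0.138. This is a description over genes of the same libraries, not a test.

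**Figure D4:**
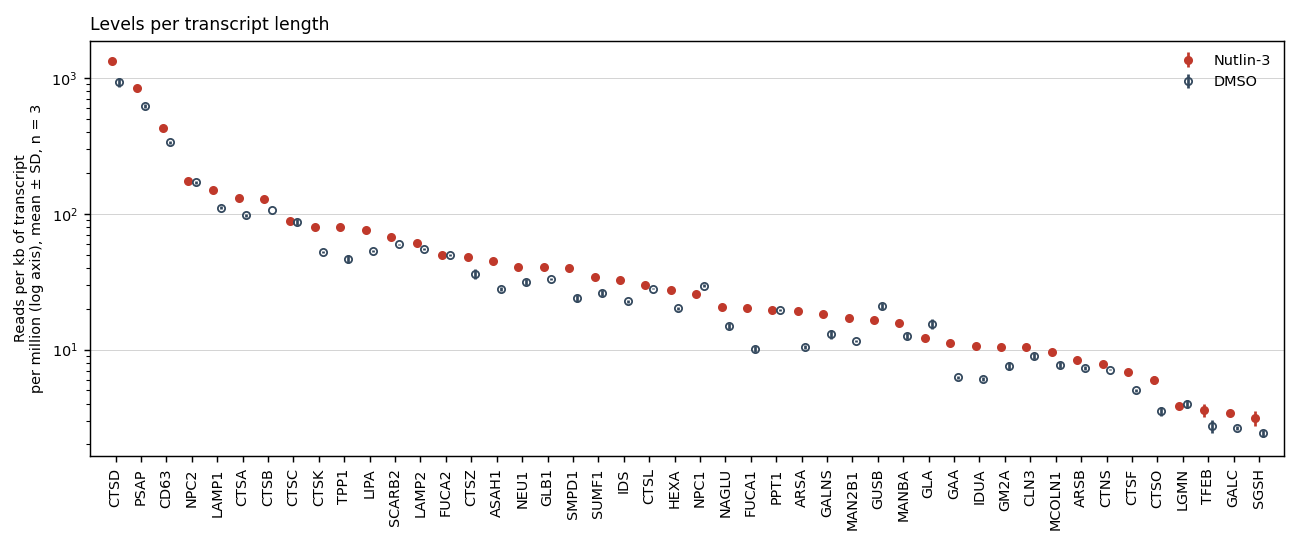
Mean levels of the 46 genes in Nutlin-3 libraries (filled) and DMSO libraries (open), in transcript RPKM (reads per kb of principal transcript, scaled to library size) on a log axis, with bars of 1 SD over 3 libraries and genes ordered by their level with Nutlin-3. CTSD, PSAP and CD63 stand above the rest, and TFEB, GALC and SGSH are lowest.

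Other genes of the same pathway were read from fixed lists. For the counts below, 29.1% of all genes tested on RPKM rose and 22.5% fell, and on reads 26.0% rose and 24.3% fell. Of 28 further genes, mostly hydrolases, 17 were tested on RPKM. Here 14 rose and 2 fell, and the median change was 0.30. On reads 19 of 26 rose and 3 fell. The lipase-like PLBD2 rose 1.63-fold, the acid nuclease DNASE2 1.47-fold and the glycoprotein CREG1 1.69-fold. GGH, the gamma-glutamyl hydrolase that acts on folates, fell to 58.8% of its DMSO level. Of 13 further membrane proteins and transporters tested, 8 rose and 5 did not pass on RPKM, and the median change was 0.25. On reads 14 of 21 rose and 1 fell. SIDT2 rose 1.79-fold and the cation channel TPCN1 1.37-fold.

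Genes for acidification and for hydrolase sorting were read in the same way, against the same shares of all genes. Of 17 genes of the V-ATPase, 14 rose and 1 fell, with a median of 0.24, and on reads 15 rose and 1 fell. The accessory subunits ATP6AP1 and ATP6AP2 each rose 1.40-fold and the catalytic subunit ATP6V1A 1.46-fold, while ATP6V0A2 fell to 84.9%. Of 10 tested genes of mannose 6-phosphate tagging and sorting, 7 rose and 1 fell, with a median of 0.23, and on reads 9 of 11 rose and 1 fell. These included GNPTAB, a subunit of the tagging phosphotransferase, at 1.37-fold, its partner GNPTG at 1.31-fold and the sorting receptor gene SORT1 at 1.36-fold, and GGA2, a sorting adaptor, fell to 91.0%.

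Of 15 tested genes of MiT/TFE factors and lysosomal mTORC1 control, 11 rose and 1 fell, with a median of 0.14. On reads all 20 were tested, of which 12 rose and 4 fell, the 4 being RHEB, FNIP1, RPTOR and TFEC. RRAGA, a GTPase that brings mTORC1 to lysosomes, rose 1.27-fold and LAMTOR2 of its anchor 1.22-fold. RHEB, the GTPase that activates mTORC1, fell to 78.2% of the DMSO level. Of 20 tested genes of lysosome positioning and fusion, 12 rose and 8 did not pass on RPKM, and the median change was 0.13. On reads 16 of 24 rose. BLOC1S2, shared by the BLOC-1 and BORC complexes, rose 1.70-fold, BORCS6 of BORC 1.47-fold and VPS39 of the HOPS tether 1.30-fold. By comparison, 29.1% of all genes tested on RPKM rose and 22.5% fell, and on reads 26.0% rose and 24.3% fell. The median of all genes tested on RPKM was 0.024 and that of the 39 lysosomal genes 0.35.

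Macrophages are rich in lysosomes, and their markers were read as a check. None of 7 such genes reached 0.5 RPKM, a scale on which long genes are low. CSF1R had the most reads, 230, 280 and 188 with Nutlin-3 and 363, 287 and 287 with DMSO, and fell on reads, as did CD163 with at most 18 reads in a library (limma voom adjusted p = 0.00331 and 0.0104). Their summed level was between 0.162 and 0.195 RPKM with Nutlin-3 and between 0.213 and 0.244 RPKM with DMSO, with AIF1 and TYROBP at 0 in every library. Some lysosomal genes share exons with neighbours in GENCODE 29, so that their reads may be split or shared. On the same strand more than 10% of the exon length is shared by 6 of the 46 genes, with 41.7% for CTSD, 25.2% for CLN3, 21.2% for MAN2B1 and 17.4% for IDS. On the opposite strand this holds for 6 genes, CTSD again among them, with 28.5% for CTSA and 23.4% for PPT1, and whether counting used strand is not given in the sources used here.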

How the data were processed

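Libraries of poly(A) RNA came from a strand-marking TruSeq kit, per the labels' protocols. CASAVA 1.8.2, TopHat2, edgeR and hg19 are named without a role, per the submitters' processing notes. Values were deposited as RPKM, computed by the authors. Values below 20 reads were whole within 0.01 of a read for 90.1% with the gene span of GENCODE 29, and for 25.3% with the exon length. The library sizes had been fitted to the gene span, and the exon length was given no sizes of its own. Reads came from the span for 32 of the 46 genes and from the ratios between libraries for 14, which give the smallest whole numbers possible. As inferred from the RPKM, the authors' library sizes were between 0.962 and 0.981 times the recovered reads in Nutlin-3 libraries. In DMSO libraries they were between 1.03 and 1.05 times the recovered reads.

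Genes whose mean reached 0.5 RPKM entered limma 3.58.1 (R 4.3.3) as log2(RPKM + 0.5) (trend, group as the only term), with Benjamini-Hochberg adjustment over all genes tested and a threshold of 0.05. The pseudocount shrinks log2 changes of low genes. Folds are quotients of group means of RPKM. limma voom on recovered reads, with a mean of at least 10 and the authors' library sizes, was the alternative on reads. Levels per length divide reads by the longest principal transcript in GENCODE 29, which uses another build and gave no coordinates. Between replicates the chi-square per gene was at least 1.63, more than counting noise alone gives, so no library was treated as a repeat deposit of another. This does not show separate cultures. The chi-square per gene of DMSO replicate 1 was 3.99 with DMSO replicate 2 and 4.82 with DMSO replicate 3. For other pairs of replicates it was at most 2.5. Full statistics go, by rule, to the 3 largest rises and 2 largest falls of each class and to members that did not pass, and up to 3 rises and 2 falls are named in other lists. Of 201 list entries 199 matched an ID. The members, lists and tests were chosen with earlier results of these data known. SERPINB1, MITF, CTSV and markers such as KRT8 and CSF1R, with FNIP1, RPTOR and TFEC, lie outside the rule and were named after their values were seen. Some genes of the other lists are not reported here by name.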

Additional observations from a re-analysis of the deposited data

How the results depend on the processing

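Of the 39 lysosomal genes tested on RPKM, all kept their direction and side of the threshold with a pseudocount of 0.1 or 1, under median-of-ratios scaling and on reads. Leaving out 1 library in turn gave between 28 and 30 rising and 3 falling genes on RPKM, and 36 and 3 on reads. Over all genes that range was 2879 to 3265 rising and 2193 to 2428 falling on RPKM. On reads, with more genes tested, it was 4740 to 5296 rising and 4359 to 4904 falling. With all 6 libraries 5379 genes rose and 5045 fell on reads. Scaling to total recovered reads, added after seeing the data, gave 5 falling lysosomal genes on RPKM and 5 on reads, since it lowers Nutlin-3 values relative to DMSO values. Without a minimum RPKM the calls of CLN3 and SGSH were lost (adjusted p = 0.0577 and 0.0900). The sign turned, without a call, for CTSC (-0.058 with total reads), CTSL (-0.020 with total reads) and NPC2 (-0.050 with total reads, -0.019 under quantile normalization). Leaving out 1 library gave between -0.0026 and 0.067 for CTSC, between -0.012 and 0.011 for FUCA2 and between -0.022 and 0.0037 for PPT1. With the replicate number as a block, 29 lysosomal genes rose and 3 fell (2936 and 2199 over all genes), and CTNS and SGSH lost their calls. Deviations of same-numbered libraries from their group means had correlations of -0.025, 0.0080 and 0.017, so no shared deviation by number was seen. This cannot show whether same-numbered cultures were handled together. Genes below about 300 reads per library, such as TFEB and LGMN, have the widest errors.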

Other observations

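Inhibitors of cathepsins and a few hydrolases outside the main list moved in their own ways. Cystatin C (CST3), a secreted inhibitor of cysteine cathepsins, rose to 5.91 ± 0.411 RPKM with Nutlin-3, against 3.61 ± 0.239 RPKM with DMSO (n = 3, limma adjusted p = 0.000757), a 1.64-fold rise. Cystatin B (CSTB), the cytosolic inhibitor, rose 1.24-fold, and SERPINB6 fell to 85.7% of its DMSO level. Of the 4 inhibitors tested, SERPINB1 did not pass (limma adjusted p = 0.0925). CTSV, the closest relative of CTSL, lay under the minimum of 0.5 RPKM, at 0.205 ± 0.00278 RPKM with Nutlin-3 and 0.429 ± 0.0303 RPKM with DMSO. It fell by 1.04 on the log2 scale of reads (limma voom adjusted p = 2.93e-06), while CTSL itself did not pass.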
